A study of Mus musculus with 12 samples.

Results

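The genes described here were chosen by 1 rule applied to both steps of the design. They were at least 1.5-fold higher in Ncf1-/- than in WT neural stem cells (NSCs), and at least 1.5-fold higher again in Ncf1-/- NSCs given Igfbp2. Of 45792 genes in the files, 13431 had a mean of at least 2 CPM, counts scaled to a library sum of 1000000, in at least 1 group, and 235 of these met both conditions. The folds compare group means of 4 libraries after 0.5 CPM was added to each mean. The first condition alone was met by 3330 genes and the second by 630. Both comparisons therefore chose the genes, so their values at these steps are given as a description and without a test.

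RNA came from 12 cultures of NSCs of the forebrain of neonatal mice, 4 in each of 3 groups. WT cultures were C57BL/6J, and Ncf1-/- cultures came from mice with the Ncf1 knockout, backcrossed to C57BL/6J. The third group was Ncf1-/- NSCs that received mouse recombinant Igfbp2 at 100 ng/ml by the labels, while the study's methods give a lower concentration, 48 h after plating, with RNA taken 48 h later. All cultures were grown without serum in medium with EGF, FGF, insulin and B-27, the labels give no treatment for the other 2 groups, and WT cells with added Igfbp2 were not analysed here. Libraries 9 to 12 were WT, 1 to 4 Ncf1-/- and 5 to 8 Ncf1-/- with Igfbp2, and values per library are given in that order. The study's methods describe 1 culture per pup and group, with the treated and untreated Ncf1-/- cultures taken from the same pups.

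Ncf1 encodes p47phox, the organiser subunit of NADPH oxidase 2, an enzyme that makes superoxide and through it hydrogen peroxide. Igfbp2 is a secreted protein that binds insulin-like growth factors and, through an RGD sequence, integrins, and it is made by neural progenitors themselves. Genes that answer growth factor and integrin signals include immediate early transcription factors, the phosphatases and Sprouty proteins that damp ERK signalling, and matrix proteins secreted later. The 235 genes held some genes of each of these kinds, such as 5 of the 31 tested on a list of immediate early genes. The part of such signals in their values was not tested.

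Total estimated counts per library ran from 18201622 to 34086554, and 5 structural RNAs (Rn7s1, Rn7s2, Rn7sk, Rpph1 and Rmrp), left out of the CPM, took 10.5 to 14.2% of them in WT, 8.82 to 13.0% in Ncf1-/- and 13.2 to 19.9% in the Igfbp2 group. Uty, Kdm5d, Ddx3y and Eif2s3y, which are Y-linked, summed to 119 to 135 CPM in WT libraries 9 to 11 and to 133 to 142 CPM in the 4 Ncf1-/- libraries, but to 7.03 CPM in WT library 12 and to 8.25 to 10.2 CPM in the 4 Igfbp2 libraries. Xist stood at 4.33 to 5.95 CPM in WT libraries 9 to 11, at 316 CPM in library 12, at 91.0 to 108 CPM in Ncf1-/- and at 182 to 306 CPM with Igfbp2. The sex of the cells thus cannot be told apart from the Igfbp2 step, whereas cultures of the same pup would share their sex. The first step was not free of such differences either. All 4 Ncf1-/- libraries were high in both Y-linked RNA and Xist, whereas no WT library was high in both. The part of sex in the values at either step was not tested. Library 12 is untreated WT by its labels and by the sample list that the study's code reads, whereas another list in the study's supplementary software gives it as treated with apocynin. Ncf1 itself had at most 7 counts in any library and could not check the genotype. The astrocyte markers summed to 10720 to 19076 CPM in WT, 4323 to 5794 CPM in Ncf1-/- and 4416 to 6535 CPM with Igfbp2. Aldh1l1 and Gjb6 among them overlapped between WT and Ncf1-/-, with Aldh1l1 at 269 to 1758 CPM, 1256 to 1439 CPM and 1619 to 1984 CPM. In such bulk samples fewer cells of a type and less RNA per cell cannot be told apart.

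**Figure D1:**
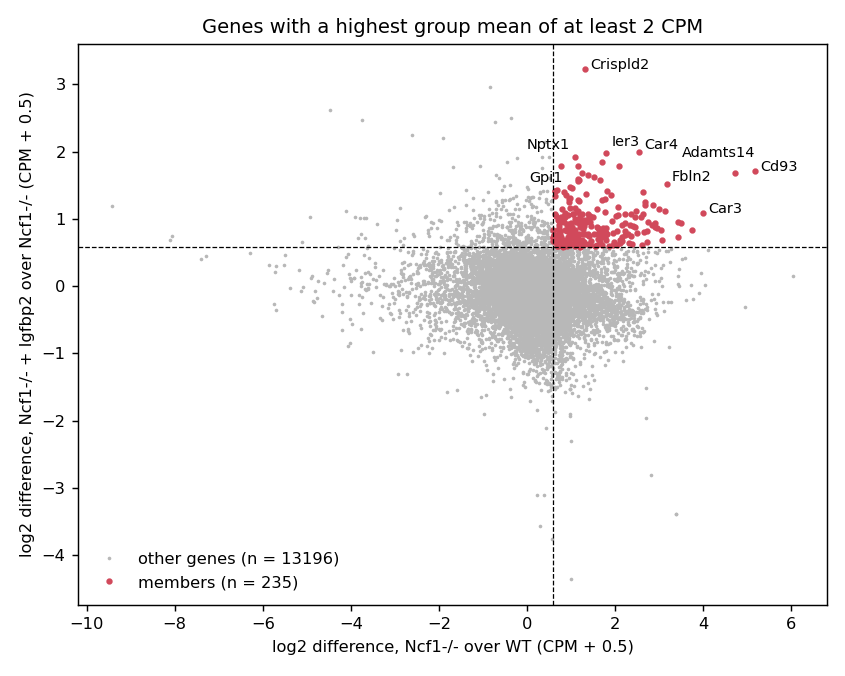
Each point is 1 of the 13431 genes with a highest group mean of at least 2 CPM, with its log2 difference of Ncf1-/- over WT on the horizontal axis and of Ncf1-/- with Igfbp2 over Ncf1-/- on the vertical axis, both on group means + 0.5 CPM. The dashed lines are the 1.5-fold limits, and the 235 red points are the genes above both, with Cd93 farthest to the right (5.18) and Crispld2 highest (3.22).

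Over the 235 genes the median log2 difference was 1.27 at the first step and 0.86 at the second, where the medians of all 13431 genes were 0.17 and -0.12. From WT to Ncf1-/- with Igfbp2 the median fold was 4.74, and the folds ran from 2.40 (Cfap54) to 118 (Cd93). The step between genotypes was the larger of the 2 steps in 172 genes. Together the genes took 2125 to 4122 CPM per library in WT, 7030 to 8941 CPM in Ncf1-/- and 14739 to 17464 CPM with Igfbp2, which is 0.212 to 0.412%, 0.703 to 0.894% and 1.47 to 1.75% of the counts. No library of one group reached the range of the next.

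The WT libraries were less alike than those of the other groups. Within a group the median coefficient of variation of the 235 genes was 57.2% in WT, 14.2% in Ncf1-/- and 14.9% with Igfbp2. WT library 11 held the highest WT value for 109 genes and library 12 for 107, against 5 for library 9 and 14 for library 10. Without library 12, 278 genes met the rule, of which 231 were among the 235. In 183 of the 235 genes all 4 Ncf1-/- libraries lay above all 4 WT libraries, beside 36.8% of the 13431 genes, and in 220 all 4 Igfbp2 libraries lay above all 4 Ncf1-/- libraries, beside 10.3%. The 15 genes that overlapped at the second step were Igfbp3, Pgf, Car9, Tmem173, Cyp1b1, Fam135b, Nupr1, Tnfsfm13, Trpm2, Gm13577, Cemip, Igf1, F2rl2, Ticam2 and Mnd1. In the edgeR fit over 15706 genes, at an adjusted p under 0.05, 196 of the 235 were called at the first step, beside 28.9% of all genes tested called higher there, and 196 were called higher with Igfbp2, beside 14.2%. The rule had used these contrasts, so nothing is read from those counts.

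**Figure D2:**
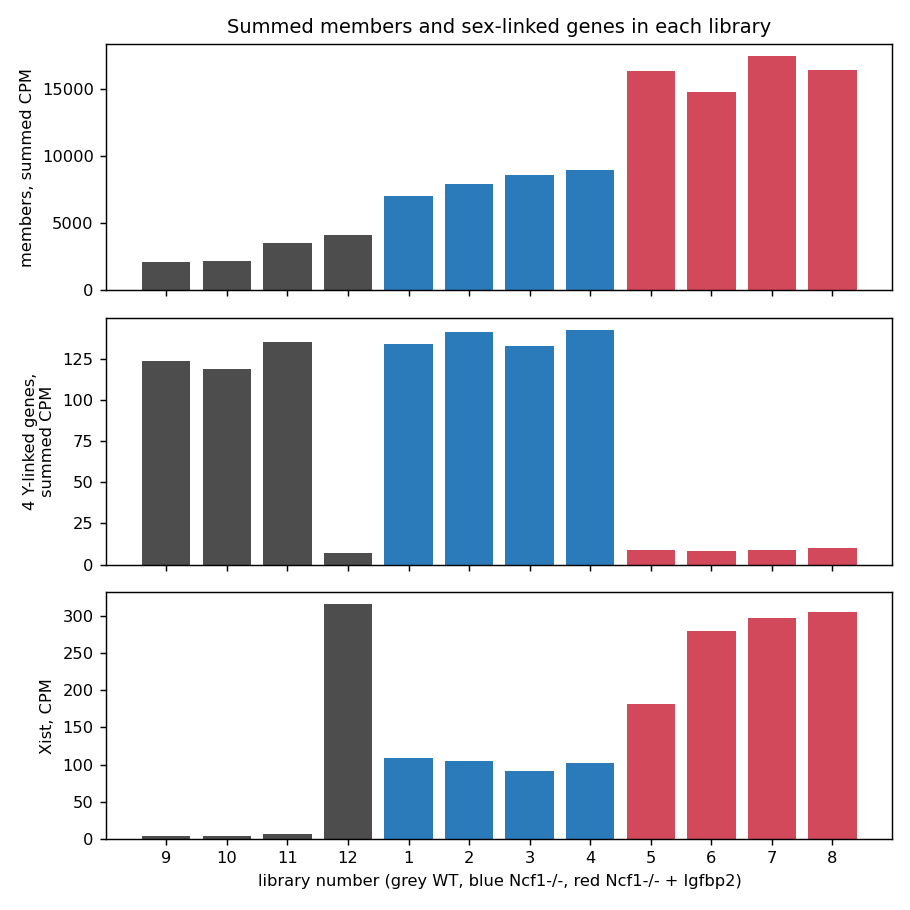
Bars give, for each library, the summed CPM of the 235 genes (top), of 4 Y-linked genes (middle) and the CPM of Xist (bottom), with WT in grey, Ncf1-/- in blue and Ncf1-/- with Igfbp2 in red. The summed genes run from 2125 CPM in library 9 to 17464 CPM in library 7, and WT library 12 and the 4 Igfbp2 libraries are at 10.2 CPM or less for the Y-linked genes.

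Genes lay on both sides of each limit without a gap. The genes nearest inside the first limit were Lama5, Calr3 and Selenbp1 (log2 differences of 0.59, 0.59 and 0.60), and nearest outside were the 3 copies of the U3 snoRNA, Rnu3b1, Rnu3b2 and Rnu3b3 (0.57 each). At the second limit St3gal5, Mnd1 and Cfap54 were inside (0.59 each), and Kcnc1, Cda and Jade2 outside (0.58 each). At the limit on level, F2rl1 (2.0 CPM), Mnd1 (2.06 CPM) and C3 (2.06 CPM) were inside, and Rerg (1.93 CPM), Tcam1 (1.95 CPM) and Clic5 (1.99 CPM) were outside.

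By type, 228 of the 235 genes were protein coding (97.0%, against 92.2% of the 13431). By position, 33 of them (14.0%) had another of the 235 within 100000 bases on GRCm38, compared with 721 of 13141 other genes with a position (5.49%). On the X chromosome lay 3 of the 235 (Dgkk, Slc7a3 and 2010204K13Rik), of 456 X-linked genes over the minimum. Neighbours among the 235 included Col4a1 with Col4a2, which share a bidirectional promoter, P3h4 with Fkbp10, Plvap with Bst2, Car9 with Tpm2 and Bcl3 with Pvr. The 235 genes had a median effective length of 2586 bases, against 2403 for the rest, and a median highest group mean of 17.0 CPM, against 36.0 CPM. In 35 of them the gene overlapped another expressed gene, such as Rab26 with an antisense RNA and Gm16010, itself antisense to Spsb4, and the counting may not have kept such genes apart. The counting may likewise not have kept apart genes of similar sequence, here the paralogs Selenbp1 and Selenbp2 and the pseudogene Gm13577. The snoRNA Gm22270, with an effective length of 7.71 bases, was uncertain too.

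Promoter windows of 300 bases, 250 before to 50 after the RefSeq start (GRCm38.p6), were at hand for 163 of the 235 genes. The 5 stretches here are 120 bases each, lie before the start and hold a motif, and belong to genes that stand for different functions (a chemokine, an immediate early gene, a contractile protein, an adhesion protein and a neuropeptide precursor), written 5′ to 3′, with 1 searched motif in capitals. The Cnn2 stretch also holds an Egr site, left in lower case. The motif in capitals is a kappa B site, the sequence NF-kB binds, in Cxcl1 and Ier3, a CArG box, bound by serum response factor, in Cnn2, an AP-1 site in Fblim1 and a cyclic AMP response element (CRE) in Scg2.
Cxcl1 (chr5:90891119-90891238, plus strand): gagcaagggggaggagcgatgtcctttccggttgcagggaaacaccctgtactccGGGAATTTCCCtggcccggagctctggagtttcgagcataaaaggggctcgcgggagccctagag
Ier3 (chr17:35821566-35821685, plus strand): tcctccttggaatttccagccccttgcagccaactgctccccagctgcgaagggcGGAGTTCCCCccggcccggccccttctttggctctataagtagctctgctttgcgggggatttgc
Cnn2 (chr10:79988480-79988599, plus strand): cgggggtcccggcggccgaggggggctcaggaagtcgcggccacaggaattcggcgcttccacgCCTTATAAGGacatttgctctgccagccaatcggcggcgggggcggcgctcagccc
Fblim1 (chr4:141606068-141606187, minus strand): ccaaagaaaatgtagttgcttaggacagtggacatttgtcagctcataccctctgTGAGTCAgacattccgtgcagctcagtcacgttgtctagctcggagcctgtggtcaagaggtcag
Scg2 (chr1:79440030-79440149, minus strand): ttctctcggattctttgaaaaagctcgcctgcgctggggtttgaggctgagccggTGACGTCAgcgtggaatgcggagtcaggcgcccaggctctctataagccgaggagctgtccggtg

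Motifs were searched on both strands of the whole window, and a match describes letters, not binding. A kappa B site was in 11% of the 163 windows, against 6.23% of 9829 windows of the other genes over the minimum and 5.14% of all 27025 windows. In Cxcl1 the capitals hold 2 overlapping matches of it. The AP-1 letters TGACTCA were in 9.20%, 4.11% and 5.95%, the CArG box in 2.45%, 1.53% and 1.81%, and the TATA letters TATAAA in 13.5%, 8.01% and 15.7%. The CRE letters TGACGTCA were in 3.07%, 3.71% and 2.03%, the E box CACGTG in 9.82%, 11.9% and 8.09%, and the Egr site (GCGTGGGCG or GCGGGGGCG) in 5.52%, 8.11% and 3.93%. The median GC content of the windows was 61.0% for the 163 genes and 61.3% for the others, and the median number of CpG was 15 against 21.

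The 235 genes were sorted by what their products are known to do into 9 groups of function that hold 169 genes, and 66 others. The groups were made after the values were seen, and genes named below outside the naming rule were likewise chosen with their values known. The naming rule (the highest levels, the largest differences and the fixed pathway lists) gave 62 genes.

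**Figure D3:**
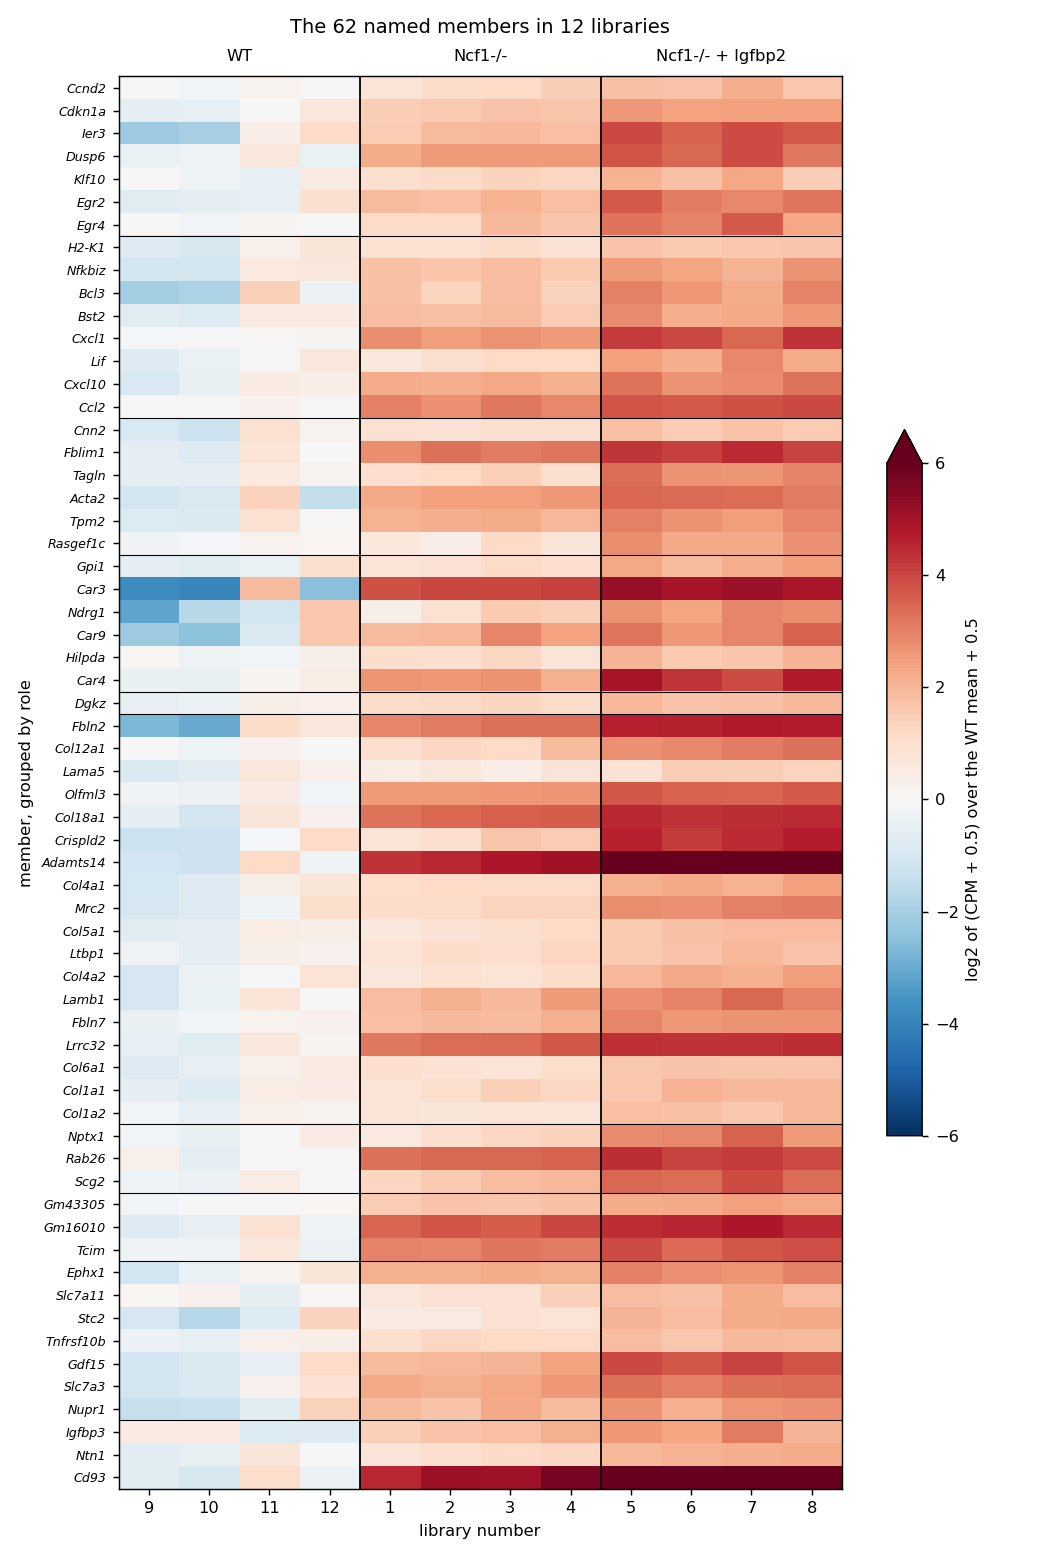
Each row is 1 of the 62 named genes, grouped by function, and each column 1 of the 12 libraries. Colour is the log2 of (CPM + 0.5) over the WT mean + 0.5, with values past 6 in the darkest red (Cd93 and Adamts14 with Igfbp2); Car3 and Fbln2 are bluer in WT libraries 9 and 10 than in library 11.

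The 10 genes of ERK feedback, immediate early response and cell cycle control had a median log2 difference of 1.81 at the first step and 1.17 at the second. In all 10 neither step overlapped, but the rule had used both steps. At the first step 183 of the 235 genes were likewise apart, beside 36.8% of the 13431 genes, and at the second 220, beside 10.3%. Dusp6 (chr10:99263231-99267489), a phosphatase that inactivates ERK, stood at 7.32, 8.35, 15.9 and 7.38 CPM in the WT libraries, at 46.8, 59.4, 59.8 and 60.5 CPM in Ncf1-/- and at 139, 112, 153 and 90.2 CPM with Igfbp2. Spry4, a Sprouty inhibitor of receptor tyrosine kinase signalling, stood at 16.9 to 22.6 CPM, 55.4 to 85.2 CPM and 153 to 246 CPM. Its relative Spry1 stood at 12.3 to 17.0 CPM, 64.5 to 78.5 CPM and 96.5 to 136 CPM, so that the larger part of its difference lay between the genotypes. The 3 groups were apart in each of these genes, and Igfbp2 library 7 was the highest of its group in all 3.

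Ier3, an immediate early gene that regulates cell survival and whose promoter is printed above, stood at 1.63, 1.86, 12.1 and 20.4 CPM in WT, at 26.8, 34.9, 35.5 and 32.9 CPM in Ncf1-/- and at 148, 109, 143 and 121 CPM with Igfbp2. The steps were 3.48-fold and 3.96-fold on the CPM + 0.5 scale, and WT libraries 11 and 12 were well above 9 and 10. Egr2, a zinc finger transcription factor of the early growth response family, was at 0.915 to 3.75 CPM, 7.04 to 8.67 CPM and 15.8 to 27.7 CPM. Egr4 of the same family was at 0.131 CPM or less in WT, at 0.748 to 1.67 CPM in Ncf1-/- and at 2.30 to 6.77 CPM with Igfbp2. Klf10, a transcriptional repressor induced by TGF-beta, was at 12.6 to 26.3 CPM, 36.3 to 46.4 CPM and 51.9 to 93.0 CPM.

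Cell cycle genes of opposite function were in the same group. Cdkn1a, which encodes the cyclin-dependent kinase inhibitor p21, stood at 39.1, 40.3, 57.1 and 89.7 CPM in WT, at 157, 168, 187 and 178 CPM in Ncf1-/- and at 341, 301, 310 and 311 CPM with Igfbp2. Ccnd2, encoding cyclin D2, which drives the cell through G1, stood at 354, 346, 447 and 388 CPM, at 663, 816, 880 and 1078 CPM and at 1300, 1246, 1719 and 1167 CPM. The log2 differences were 1.60 and 0.87 for Cdkn1a and 1.16 and 0.66 for Ccnd2. Neither gene had a library that crossed into the range of another group.

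The fixed list of immediate early genes was read beside these members. Of 31 genes tested, 5 of them members, edgeR called 12 higher and 7 lower in Ncf1-/- than in WT. Beside these, 28.9% of all genes were called higher and 28.2% lower. The median log2 fold change was 0.38 beside 0.02 for all genes. With Igfbp2, 18 were higher and 0 lower, beside 14.2% of all genes called higher and 10.7% lower. The median was 0.75 beside 0.04. On log2(TPM + 1) with limma these became 8 higher and 1 lower. With the replicate block of the preparation, a fit without the WT libraries, 23 were higher and 1 lower. Among the 26 that were no members, 7 were higher and 7 lower between the genotypes and 13 were higher with Igfbp2. Egr1, the founding member of its family and named after its value was seen, was lower in Ncf1-/- (log2 fold change -1.03, SE 0.33, edgeR adjusted p = 0.0165) and rose with Igfbp2 (3.17, SE 0.35, edgeR adjusted p = 0.000397). Its means were 57.8 CPM in WT, 31.9 CPM in Ncf1-/- and 251 CPM with Igfbp2, so that its first step went the other way from that of Egr2 and Egr4. This first step missed the threshold without Ncf1-/- library 1 (edgeR adjusted p = 0.0525) and with limma on log2(TPM + 1) (adjusted p = 0.107). Fosb, an AP-1 subunit, was also lower at the first step (-2.64, SE 0.53, edgeR adjusted p = 0.000902) and higher at the second (3.0, SE 0.53, edgeR adjusted p = 0.00272).

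**Figure D4:**
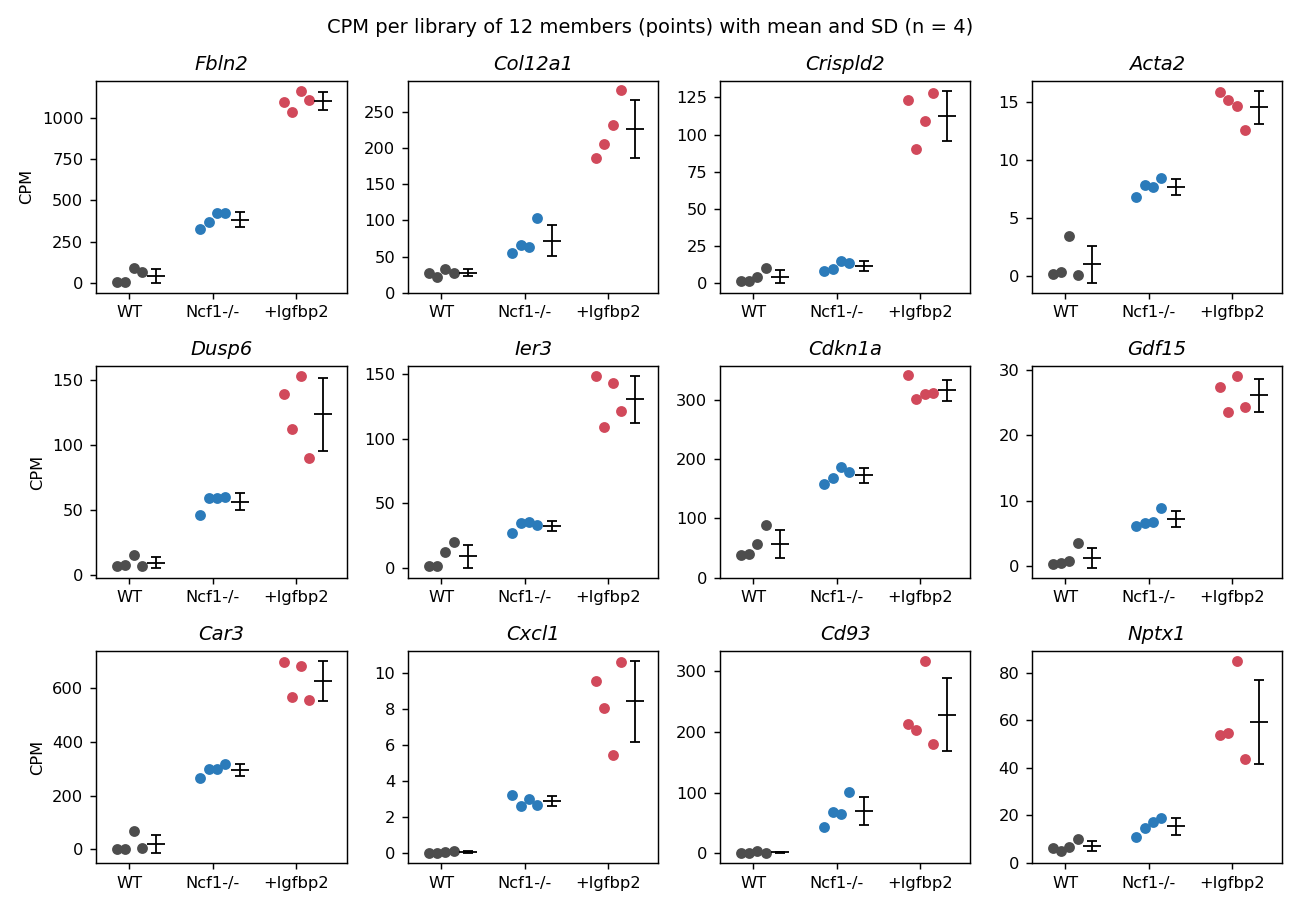
Points are the CPM of 12 of the 235 genes in each library, with WT in grey, Ncf1-/- in blue and Ncf1-/- with Igfbp2 in red, and the bars beside them are the mean and SD of 4 libraries; each panel has its own linear axis. Fbln2 stands at 42.3, 384 and 1102 CPM on average and Cxcl1 at 0.0466, 2.88 and 8.41 CPM, and the Igfbp2 points lie above all Ncf1-/- points in every panel.

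The matrix group was the largest, with 34 genes for matrix proteins, the enzymes that process them and matrix receptors. Its median log2 differences were 1.24 and 0.95. All 4 Igfbp2 libraries lay above the Ncf1-/- libraries in 33 of the 34 genes, beside 220 of the 235 and 10.3% of the 13431 genes. The rule had used this step. Fbln2 (chr6:91212455-91272540), a secreted glycoprotein of basement membranes and elastic fibres, stood at 6.10, 4.81, 90.6 and 67.7 CPM in WT, at 325, 367, 424 and 421 CPM in Ncf1-/- and at 1098, 1036, 1167 and 1109 CPM with Igfbp2. The WT libraries fell into a low and a higher pair, and all were below every Ncf1-/- library. Fbln7 of the same family was at 1.93 to 3.45 CPM, 11 to 13.7 CPM and 19.6 to 24.4 CPM. Other family members were outside the rule: Fbln1 had means of 41.3, 111 and 101 CPM, Fbln5 of 7.85, 10.2 and 12.9 CPM, Efemp2 of 35.4, 70.8 and 79.6 CPM, and Efemp1 of 11.3, 2.59 and 3.29 CPM.

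Crispld2 (chr8:119992438-120052793), a secreted protein with LCCL domains that is known as a glucocorticoid-responsive gene, had the largest difference at the second step. It stood at 1.52, 1.56, 4.0 and 10.5 CPM in WT, at 8.22, 9.47, 15.1 and 13.7 CPM in Ncf1-/- and at 123, 90.2, 109 and 128 CPM with Igfbp2. The second step was 9.33-fold, while at the first WT library 12 lay among the Ncf1-/- libraries. Of 19 genes tested on the fixed list of glucocorticoid-responsive genes, with Crispld2 the only member, 7 were higher and 4 lower in Ncf1-/- (median 0.00), and 9 were higher and 0 lower with Igfbp2 (median 0.45). That second median was -0.001 with 2 genes higher and 1 lower on log2(TPM + 1). In the edgeR fit 28.9% of all genes were called higher and 28.2% lower at the first step, and 14.2% and 10.7% at the second.

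Adamts14, a protease that removes the amino propeptide of fibrillar collagens, stood at 0.102, 0.0601, 2.49 and 0.605 CPM in WT, at 26.4, 29.7, 37.8 and 42.2 CPM in Ncf1-/- and at 102, 103, 138 and 97.0 CPM with Igfbp2. It was low in every WT library, and Igfbp2 library 7 stood above the rest of its group. Col12a1, a collagen that associates with fibrils, stood at 27.7, 21.8, 33.2 and 27.4 CPM, at 55.5, 66.2, 63.1 and 103 CPM and at 187, 206, 232 and 280 CPM. Here the second step (3.13-fold) was the larger. Mrc2, an endocytic collagen receptor, was at 4.32 to 19.2 CPM, 20.2 to 23.7 CPM and 64.3 to 80.6 CPM, and Npnt, a basement membrane ligand of integrin alpha 8 beta 1, at 4.21 to 11.1 CPM, 11.1 to 17.9 CPM and 37.7 to 51.7 CPM.

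Basement membrane chains were among the members on the list. Col18a1, whose carboxy end is the source of endostatin, was at 2.04 to 8.62 CPM, 52.3 to 66.9 CPM and 110 to 124 CPM. Col4a1, a chain of type IV collagen, was at 9.10 to 32.3 CPM, 40.2 to 45.0 CPM and 83.6 to 107 CPM. Its partner chain Col4a2 was at 2.90 to 11.4 CPM, 10.2 to 13.8 CPM and 26.5 to 37.7 CPM, with WT library 12 inside the Ncf1-/- range. The laminin chain Lamb1 was at 0.966 to 4.52 CPM, 10.1 to 16.8 CPM and 19.1 to 31.8 CPM. The laminin chain Lama5 was at 47.9 to 139 CPM in WT and 116 to 152 CPM in Ncf1-/-, which overlapped, and at 159 to 242 CPM with Igfbp2.

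Members among the fibrillar collagens and other matrix genes had the order of groups that the rule set. Fibrillar collagens outside the rule differed: Col11a1 had means of 190, 75.4 and 105 CPM, Col5a2 of 52.4, 125 and 147 CPM and Col5a3 of 8.59, 37.8 and 34.9 CPM. Olfml3, a secreted olfactomedin-domain protein, was at 8.89 to 16.4 CPM, 69.1 to 72.9 CPM and 133 to 158 CPM. Col5a1 was at 11.3 to 24.6 CPM, 27.6 to 41.2 CPM and 54.2 to 66.6 CPM, and Ltbp1, which holds latent TGF-beta in the matrix, at 8.43 to 16.4 CPM, 22.7 to 31.1 CPM and 38.2 to 51.4 CPM. On TPM both differences of Ltbp1 fell below 0. Lrrc32, which anchors latent TGF-beta at the cell surface, was at 0.0601 to 0.950 CPM, 7.79 to 11.8 CPM and 18.5 to 19.7 CPM. The chains of type I collagen had few counts: Col1a1 was at 0.361 to 1.51 CPM, 2.04 to 3.45 CPM and 3.89 to 5.59 CPM, and Col1a2 at 0.0601 to 0.491 CPM, 0.810 to 0.890 CPM and 1.94 to 2.62 CPM. Col6a1 was at 0.559 to 2.12 CPM, 2.61 to 3.26 CPM and 5.05 to 5.34 CPM. Genes named beside the rule were Itga5, the fibronectin receptor chain, at means of 13.7, 32.7 and 61.7 CPM, and Fkbp10 and P3h4, which act in collagen folding, at 10.3, 21.9 and 46.4 CPM and at 14.8, 26.9 and 40.8 CPM.

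Of 49 extracellular matrix genes tested on the fixed list, 15 were members. Between the genotypes edgeR called 25 higher and 11 lower (median log2 fold change 0.77 beside 0.02 for all genes), and with Igfbp2 it called 30 higher and 0 lower (0.94 beside 0.04). The second count was 19 higher and 0 lower on library totals (median 0.67), and 11 higher and 0 lower with limma on log2(TPM + 1) (median 0.11). Among the 34 that were no members, 11 were higher and 11 lower at the first step and 16 higher and 0 lower at the second. Over all 15706 genes the shares called higher and lower were 28.9% and 28.2% at the first step, and 14.2% and 10.7% at the second. Examples, named after their values were seen, were basement membrane genes. Lamc1, the common laminin gamma chain, was lower in Ncf1-/- (-0.83, SE 0.17, edgeR adjusted p = 0.000959) and higher with Igfbp2 (1.10, SE 0.17, edgeR adjusted p = 0.00139). Nid1, which links laminin to collagen IV, changed likewise (-0.74, SE 0.22, edgeR adjusted p = 0.0115, then 1.45, SE 0.22, edgeR adjusted p = 0.00133). With limma on log2(TPM + 1) the second step of Lamc1 and the first of Nid1 missed the threshold (adjusted p = 0.0613 and 0.0944). Tnc, a matrix glycoprotein of the stem cell niche, had means of 366, 359 and 875 CPM and was called at the second step only (1.47, SE 0.32, edgeR adjusted p = 0.00668). Col3a1 went higher at the first step (4.28, SE 0.39, edgeR adjusted p = 1.42e-06) and had 0.31 (SE 0.27, edgeR adjusted p = 0.424) at the second.

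Genes of the contractile apparatus were also among the 235. Acta2, smooth muscle actin, stood at 0.203, 0.300, 3.41 and 0.0605 CPM in WT, at 6.77, 7.85, 7.67 and 8.46 CPM in Ncf1-/- and at 15.9, 15.2, 14.7 and 12.6 CPM with Igfbp2. Only WT library 11 came above 1 CPM in its group. Tagln, the actin cross-linker transgelin, was at 1.17 to 3.24 CPM, 4.37 to 6.17 CPM and 15.1 to 25.1 CPM, and its gene overlaps another expressed gene. Tpm2, a tropomyosin that stabilises actin filaments, was at 0.421 to 2.65 CPM, 6.21 to 7.34 CPM and 9.14 to 13.3 CPM. Cnn2, calponin 2, whose CArG box is printed above, was at 7.69 to 38.0 CPM in WT and 36.6 to 39.9 CPM in Ncf1-/-, which overlapped, and at 57.7 to 68.9 CPM with Igfbp2.

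Fblim1, migfilin, which ties filamin to integrin adhesions and whose AP-1 letters are printed above, was at 0.120 to 1.38 CPM, 6.88 to 9.91 CPM and 17.2 to 23.4 CPM. Rasgef1c, a Ras family exchange factor, was at 0.203 to 0.426 CPM, 0.561 to 1.33 CPM and 3.37 to 5.17 CPM, with the larger step at Igfbp2 (log2 differences 0.76 and 1.79). Cavin1, a coat protein of caveolae, was at means of 19.9, 52.7 and 112 CPM, and Piezo1, a mechanically gated cation channel, at 7.79, 33.8 and 60.2 CPM. Of 20 genes on the fixed list of contractile and serum response factor targets, 4 of them members, 10 were called higher and 4 lower in Ncf1-/- (median 0.54), and 5 higher and 0 lower with Igfbp2 (median 0.36, and -0.08 on log2(TPM + 1)). With the replicate block of the preparation 10 were higher, on library totals 3, and with limma on log2(TPM + 1) 1. Among the 16 that were no members, 7 were higher and 4 lower at the first step and 4 higher and 0 lower at the second. Of all genes tested, 28.9% and 14.2% were called higher at the 2 steps.

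Markers of cells that normally make these matrix and contractile proteins were read in the same libraries. The 10 fibroblast and mural cell markers summed to 9.34 to 27.4 CPM in WT, 7.78 to 9.81 CPM in Ncf1-/- and 12.6 to 16.5 CPM with Igfbp2, with Col1a1 and Col1a2 themselves among them. Kcnj8, Abcc9, Anpep, Dcn and Lum were under 1 CPM in every library, and Pdgfrb was at 5.57 to 26.1 CPM in WT, 0.222 to 0.598 CPM in Ncf1-/- and 0.974 to 1.67 CPM with Igfbp2. The part of such cells in the matrix values beyond these levels was not tested.

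The 15 vascular and growth factor genes had median log2 differences of 1.69 and 0.86. Cd93 (chr2:148436640-148443563), a transmembrane receptor of endothelial and some myeloid cells, had the largest difference at the first step and over both. It stood at 0.716, 0.481, 3.52 and 1.03 CPM in WT, at 43.9, 67.7, 65.5 and 101 CPM in Ncf1-/- and at 214, 203, 317 and 181 CPM with Igfbp2. The 3 groups were far apart, and the spread within the treated group was wide. Igfbp3, which like Igfbp2 binds insulin-like growth factors, stood at 117, 122, 47.6 and 49.4 CPM, at 223, 275, 298 and 366 CPM and at 508, 436, 726 and 348 CPM. Igfbp2 library 8 lay below Ncf1-/- library 4, and WT libraries 11 and 12 were here the lower ones. Igf1 had few counts, with means of 0.229, 1.68 and 2.83 CPM.

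Ntn1, the guidance cue netrin 1, was at 67.0 to 179 CPM, 185 to 255 CPM and 437 to 511 CPM. Angpt2, a ligand of the Tie2 receptor, had means of 1.58, 14.4 and 27.4 CPM, Pgf, placental growth factor, of 4.82, 14.5 and 30.2 CPM, and Flt1, a receptor for Pgf and VEGF-A, of 2.50, 4.98 and 11.2 CPM. Plvap, a diaphragm protein of fenestrated endothelium, had means of 2.88, 10.4 and 18.7 CPM. The 10 endothelial markers, Flt1 among them, summed to 10.5 to 16.8 CPM in WT, 10.2 to 14.2 CPM in Ncf1-/- and 16.3 to 22.2 CPM with Igfbp2, and Pecam1, Cdh5, Cldn5, Tek, Tie1, Emcn and Erg were under 1 CPM in every library.

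The 25 chemokine, cytokine and immune genes had median log2 differences of 1.18 and 0.84. Cxcl1 (chr5:90891241-90893115), a neutrophil chemokine and NF-kB target, was at 0, 0, 0.0655 and 0.121 CPM in WT, at 3.23, 2.62, 3.0 and 2.67 CPM in Ncf1-/- and at 9.55, 8.07, 5.43 and 10.6 CPM with Igfbp2. Ccl2, which attracts monocytes, was at 0 in 3 WT libraries and at 0.131 CPM in library 11, at 3.76, 3.05, 4.23 and 3.40 CPM in Ncf1-/- and at 6.82, 6.35, 6.99 and 7.71 CPM with Igfbp2. In WT both chemokines rested on too few counts for a fold, and the other groups did not overlap. Cxcl10, an interferon-induced chemokine, was at 0.0508 to 0.950 CPM, 4.05 to 4.67 CPM and 6.23 to 9.31 CPM.

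Lif, the cytokine leukemia inhibitory factor, which acts on NSCs through gp130, was at 0.407 to 1.93 CPM, 1.88 to 3.0 CPM and 6.48 to 10.7 CPM, with the larger step at Igfbp2 and WT library 12 just above Ncf1-/- library 1. The nuclear IkB proteins Nfkbiz and Bcl3, which modify NF-kB transcription, were at 6.07 to 22.3 CPM, 42.7 to 50.7 CPM and 59.1 to 91.9 CPM, and at 0 to 5.11 CPM, 4.67 to 6.89 CPM and 9.19 to 16.2 CPM. WT library 11 lay within the Ncf1-/- range of Bcl3. H2-K1, a classical MHC class I chain, was at 19.8 to 63.4 CPM, 69.7 to 81.8 CPM and 114 to 127 CPM. Bst2, tetherin, was at 0.661 to 2.42 CPM, 5.43 to 7.28 CPM and 8.77 to 14.1 CPM. Outside the rule for naming, the flagellin receptor Tlr5 had means of 2.06, 5.28 and 13.5 CPM and the necroptosis kinase Ripk3 of 0.135, 1.71 and 3.03 CPM.

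Of 25 chemokine, cytokine and NF-kB genes tested, 6 of them members, edgeR called 13 higher and 3 lower in Ncf1-/- (median 0.73) and 11 higher and 1 lower with Igfbp2 (median 0.44, and -0.02 on log2(TPM + 1), with 5 higher and 2 lower). Among the 19 that were no members, 8 were higher and 3 lower at the first step and 7 higher and 1 lower at the second. Of all genes tested, 28.9% and 14.2% were called higher at the 2 steps. Of 31 interferon response and MHC class I genes, 16 were higher and 1 lower in Ncf1-/- (median 0.65), or 13 and 1 among the 28 that were no members. With Igfbp2, 3 of the 31 were higher and 0 lower (median 0.21). Those 3 were the members Cxcl10, H2-K1 and Bst2, and on library totals 0 were higher and 4 lower with a median of -0.07. With limma on log2(TPM + 1) 1 was higher and 6 lower, and with the replicate block 6 were higher and 2 lower. The 12 microglia markers summed to 1.40 to 2.73 CPM in WT, 3.74 to 4.85 CPM in Ncf1-/- and 2.62 to 3.50 CPM with Igfbp2, and 9 of them, among them Cx3cr1, Csf1r, Aif1 and Ptprc, were under 1 CPM in every library.

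**Figure D5:**
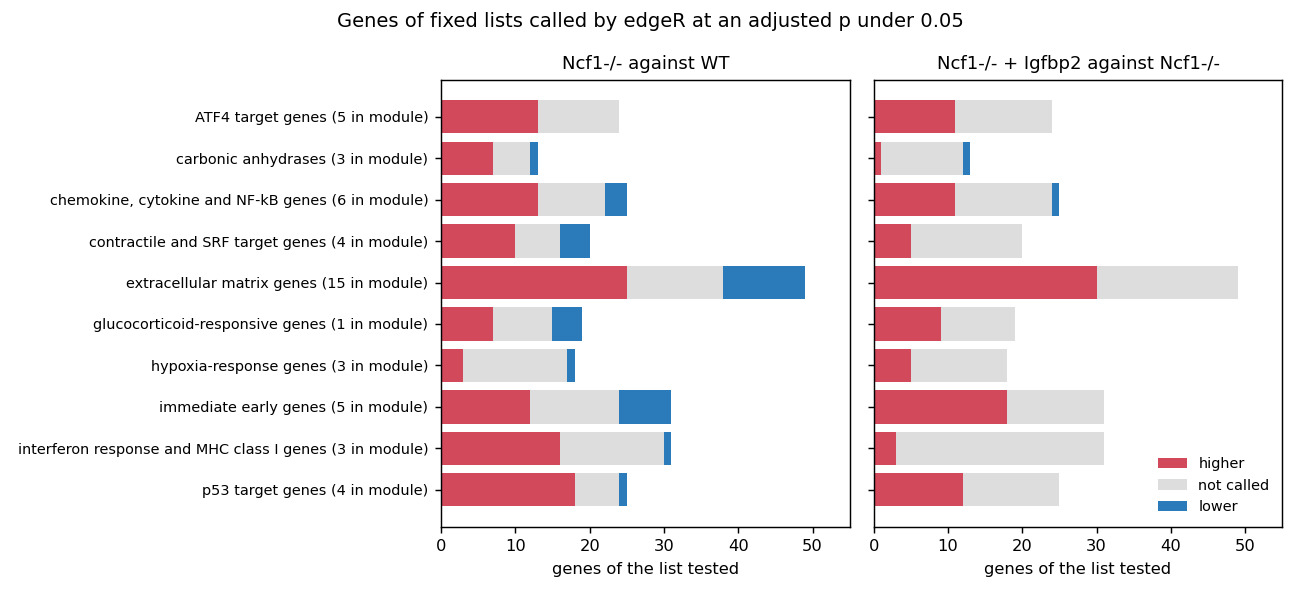
Bars give, for 10 fixed gene lists, how many genes tested were called higher (red), not called (grey) or lower (blue) by edgeR at an adjusted p under 0.05, in Ncf1-/- against WT (left) and with Igfbp2 against Ncf1-/- (right); the number of the 235 genes in each list is in brackets. On the right the matrix list has 30 of 49 genes higher and 0 lower (19 higher on library totals, 11 with limma on log2(TPM + 1)), and the interferon list 3 of 31 higher. Over all genes tested, 28.9% were called higher and 28.2% lower on the left, and 14.2% and 10.7% on the right.

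The 13 genes of stress and amino acid responses had median log2 differences of 1.42 and 0.92. Gdf15, a secreted stress cytokine induced by ATF4 and p53, stood at 0.305, 0.481, 0.786 and 3.63 CPM in WT, at 6.24, 6.67, 6.84 and 8.97 CPM in Ncf1-/- and at 27.3, 23.6, 29.1 and 24.4 CPM with Igfbp2. WT library 12 was the highest of its group and still below the Ncf1-/- libraries. Slc7a11, the cystine transporter that feeds glutathione synthesis, was at 9.75 to 17.8 CPM, 24.3 to 41.0 CPM and 51.9 to 71.7 CPM. Slc7a3, a cationic amino acid transporter, was at 0.458 to 3.27 CPM, 8.41 to 12.1 CPM and 16.2 to 20.8 CPM, and Stc2, the secreted stanniocalcin 2, at 1.74 to 18.4 CPM, 9.68 to 12.6 CPM and 25.3 to 34.9 CPM. In Stc2 WT library 12 was above every Ncf1-/- library.

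Nupr1, a stress-induced chromatin protein, was at 0.102 to 3.51 CPM, 4.67 to 7.01 CPM and 6.35 to 9.90 CPM, and its last 2 groups overlapped. Ephx1, microsomal epoxide hydrolase, was at 17.6 to 65.7 CPM, 175 to 188 CPM and 256 to 330 CPM, and Tnfrsf10b, the TRAIL death receptor, at 5.18 to 9.50 CPM, 15.3 to 18 CPM and 23.4 to 29.5 CPM. Ucp2, a mitochondrial carrier that limits superoxide formation, had means of 11.8, 38.3 and 116 CPM. Of 24 ATF4 targets tested, 5 of them members, 13 were called higher and 0 lower in Ncf1-/- (median 0.59) and 11 higher and 0 lower with Igfbp2 (median 0.69, and 6 higher and 2 lower on library totals). Among the 19 that were no members, 9 were higher at the first step and 7 at the second. Of all genes tested, 28.9% and 14.2% were called higher at the 2 steps. With the replicate block 19 of the ATF4 targets were higher and 1 lower. Of 25 p53 targets, 4 of them members, 18 were higher and 1 lower in Ncf1-/- (median 0.66). With Igfbp2, 12 were higher and 0 lower (median 0.32), which on library totals became 5 higher and 5 lower and on log2(TPM + 1) 1 higher and 6 lower. With the replicate block 14 were higher and 3 lower. Among the 21 p53 targets that were no members, 14 were higher and 1 lower at the first step and 8 higher and 0 lower at the second.

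The 12 genes of hypoxia response, pH and glucose or glycogen metabolism had median log2 differences of 1.30 and 1.07. Gpi1, glucose-6-phosphate isomerase, took the most counts of the 235 genes and stood at 353, 324, 413 and 1060 CPM in WT, at 909, 981, 1190 and 1079 CPM in Ncf1-/- and at 2646, 2018, 2456 and 3085 CPM with Igfbp2. WT library 12 lay within the Ncf1-/- range, and the other WT libraries were far below it. Ndrg1, a hypoxia-induced growth regulator, was at 0.102, 1.20, 2.06 and 16.4 CPM in WT, at 6.42, 9.78, 15.9 and 14.3 CPM in Ncf1-/- and at 34.7, 27.9, 40.9 and 37.2 CPM with Igfbp2, again with WT library 12 above every Ncf1-/- library. Hilpda, a lipid droplet protein induced by HIF-1, was at 4.69 to 7.50 CPM, 10.4 to 14.7 CPM and 18 to 25.5 CPM.

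Carbonic anhydrases interconvert carbon dioxide and bicarbonate, and 3 of them were members. Car3 (chr3:14863512-14872523), a cytosolic form abundant in muscle and fat, stood at 0.864, 0.721, 68.0 and 2.72 CPM in WT, at 264, 300, 299 and 319 CPM in Ncf1-/- and at 699, 568, 683 and 555 CPM with Igfbp2. WT library 11 stood apart from its group and below every library of the other groups. Car4, a membrane-anchored form, was at 0, 0, 0.262 and 0.423 CPM, at 3.66, 3.61, 3.84 and 2.48 CPM and at 19.9, 12.5, 9.68 and 17.9 CPM. Car9, the hypoxia-induced tumour-associated form, was at 0.102, 0, 1.02 and 7.92 CPM, at 9.62, 10.5, 20.3 and 14.1 CPM and at 24.7, 16.1, 20.9 and 31.4 CPM, with an overlap at the second step.

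The other carbonic anhydrases were outside the rule. Car2 had means of 27.2, 92.1 and 76.8 CPM, Car8 of 20.9, 91.0 and 78.3 CPM and Car13 of 0.988, 11.2 and 10.2 CPM. Car12 had means of 0.458, 2.98 and 4.62 CPM and missed the second limit with a log2 difference of 0.56, while Car5b went from 12.7 to 5.08 and 5.72 CPM. Of 13 carbonic anhydrases tested, 7 were called higher and 1 lower in Ncf1-/- (median 1.59), and 1 higher and 1 lower with Igfbp2 (median 0.06, and -0.21 on library totals), or 5 higher and 1 lower with the replicate block. Among the 10 that were no members, 4 were higher and 1 lower at the first step and 0 higher and 1 lower at the second. Of 18 hypoxia-response genes, 3 of them members, 3 were higher and 1 lower in Ncf1-/- (median 0.14) and 5 higher and 0 lower with Igfbp2 (median 0.98). With the replicate block 16 were higher and 0 lower with Igfbp2, and with limma on log2(TPM + 1) 1 was higher and 0 lower (median 0.46). Among the 15 hypoxia-response genes that were no members, 1 was higher and 1 lower at the first step and 4 higher and 0 lower at the second. Of all genes tested, 28.9% and 14.2% were called higher at the 2 steps.

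The 14 lipid and retinoid genes had median log2 differences of 1.31 and 0.92. Dgkz, a diacylglycerol kinase that ends diacylglycerol signalling, was at 67.8 to 125 CPM, 207 to 239 CPM and 321 to 390 CPM, and the related Dgkk had means of 3.86, 11.3 and 23.7 CPM. Enzymes of opposite steps of retinoic acid metabolism were both members. Aldh1a3, which makes retinoic acid, had means of 0.294, 5.85 and 13.5 CPM, and Cyp26a1, which degrades it, was at 0.360 CPM or less in WT and had means of 3.50 and 6.54 CPM in the other groups. Lpin1, a phosphatidate phosphatase of triglyceride synthesis, had means of 78.2, 128 and 210 CPM.

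The 27 neuropeptide, synaptic and channel genes had median log2 differences of 1.20 and 0.91. Nptx1, a neuronal pentraxin that clusters AMPA receptors, stood at 6.20, 4.93, 6.81 and 9.92 CPM in WT, at 10.8, 14.6, 17.2 and 18.9 CPM in Ncf1-/- and at 53.6, 54.6, 85.0 and 43.8 CPM with Igfbp2. The groups did not overlap, and the second step (3.77-fold) was the larger. Scg2, secretogranin II, a precursor of neuropeptides whose CRE is printed above, was at 0.541 to 1.31 CPM, 2.69 to 4.64 CPM and 12.9 to 19.5 CPM. Rab26, a GTPase of secretory and synaptic vesicles, was at 0.240 to 0.817 CPM, 10.01 to 11.7 CPM and 15.3 to 22.8 CPM. The neuropeptide genes Vgf and Cartpt had means of 1.0, 2.10 and 5.30 CPM and of 0.332, 1.39 and 5.16 CPM, and Camk2b, a calcium-dependent kinase subunit, of 12.8, 98.5 and 190 CPM. In the same libraries the 9 neuron markers summed to 675 to 864 CPM in WT, 615 to 682 CPM in Ncf1-/- and 472 to 525 CPM with Igfbp2. Map2 alone made up most of each sum, at 574 to 697 CPM, 576 to 647 CPM and 446 to 497 CPM. Dcx was at 52.2 to 101 CPM, 8.95 to 10.3 CPM and 4.08 to 5.85 CPM, and Tubb3, Syt1 and Stmn2 were also highest in WT. Gad1 was at 4.37 to 6.72 CPM, 6.56 to 7.82 CPM and 6.99 to 8.64 CPM, and Rbfox3 and Snap25 overlapped between the groups. The part of neurons in the values of these genes was not tested.

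The other 66 genes had median log2 differences of 1.20 and 0.76. At the second step 62 of them did not overlap, beside 220 of the 235 and 10.3% of the 13431 genes. Gm43305, a processed transcript on chromosome 14, was at 102 to 126 CPM, 331 to 392 CPM and 541 to 645 CPM. Gm16010, the antisense RNA to Spsb4, was at 0.487 to 2.60 CPM, 18.3 to 26.8 CPM and 35.8 to 47.4 CPM, and Tcim, a regulator of Wnt signalling, at 0.181 to 0.852 CPM, 6.11 to 7.67 CPM and 8.77 to 12.8 CPM. Akap12, a scaffold of protein kinase A and C, had means of 40.7, 142 and 258 CPM, and Trf, the iron carrier transferrin, of 17.3, 111 and 195 CPM. The endogenous Igfbp2 gene was no member: its means were 110, 859 and 1208 CPM, with a log2 difference of 0.49 at the second step.

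The labelled cell type was read from its markers. The 10 NSC markers summed to 4115 to 11017 CPM in WT, 10706 to 11408 CPM in Ncf1-/- and 9255 to 10378 CPM with Igfbp2, and none was under 1 CPM in every library. Vim and Fabp7 took most of the sums of both Ncf1-/- groups, and single markers differed in direction. Nes was at 128 to 510 CPM in WT and 859 to 1184 CPM in Ncf1-/-. Sox2 was at 424 to 443 CPM and 245 to 249 CPM, and Hes5 at 129 to 203 CPM and 53 to 97 CPM. Sox9, Msi1 and Prom1 were also lower in Ncf1-/- than in any WT library, whereas Slc1a3 and Pax6 overlapped. The 10 oligodendrocyte markers summed to 3669 to 12547 CPM, 2687 to 2953 CPM and 2450 to 2535 CPM. Of the 8 ependymal and choroid markers, which include the member Rarres2 and summed to 16.8 to 65.5 CPM, 40.1 to 50.4 CPM and 68.2 to 91.0 CPM, 5 were under 1 CPM in every library. The part of these differences in cell type in the values of the 235 genes was not tested.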

How the data were processed

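RNA of 12 NSC cultures (3 groups of 4) was sequenced after depletion of ribosomal RNA. Per the submitters' processing notes and the study's methods, the authors aligned reads with Bowtie2 and quantified genes with RSEM on GRCm38. For each library the authors deposited RSEM's expected counts per gene without normalization, and 15.9% of these values were not whole. The TPM deposited by the authors served in alternatives. A merged table deposited by the authors was not used, and coordinates are from GENCODE vM21 of the same build.

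CPM are expected counts over the library sum without 5 structural RNAs. Expected counts were rounded for edgeR 4.0.16 (R 4.3.3): filterByExpr, TMM and 1 quasi-likelihood model over the 3 groups without covariates, with Benjamini-Hochberg adjusted p under 0.05. All 235 genes passed the filter. On simulated data for the Igfbp2 comparison with 15706 genes, 98 of 100 genes changed by a log2 fold of 1 were recovered, and 60 of 100 changed 1.5-fold, with 12 false calls. Every simulated gene had a dispersion of 0.02. In WT the members varied more (median coefficient of variation 57.2%), so the simulation does not give the recovery in the real data. Alternatives were DESeq2 1.42.0, limma 3.58.1 on log2(TPM + 1), other scalings, pseudocounts and filters, and leaving out each library. Per the study's methods each culture of a group came from a separate pup. The closest replicates (Ncf1-/- libraries 2 and 3) differed with a chi-square of 4.40 per degree of freedom.

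The study pairs Ncf1-/- libraries 1 to 4 with Igfbp2 libraries 5 to 8, as cultures of the same pups in its methods. Deviations from the group means correlated at -0.07 to 0.03 within the 4 pairs and at -0.25 to 0.26 across them. In every pair the summed Y-linked genes were at 133 CPM or more in the Ncf1-/- library and at 10.2 CPM or less in the Igfbp2 library. Cultures of the same pup would share their Y-linked genes, so in no pair did the 2 libraries match as those of 1 pup would. How this came about was not tested. The replicate block, a further alternative, used these pairs as labelled, although their Y-linked genes differed. It was fitted without the WT libraries, so it took its spread from the 2 Ncf1-/- groups only.

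Named genes are the 10 with the highest mean, the 10 with the largest difference at each step and the members on a fixed list, plus family members and genes at the limits. The members and lists were chosen with earlier results of these data known. Some genes have no promoter window and are only named. The summary of 1 of the 9 groups of function is not reported here.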

Additional observations from a re-analysis of the deposited data

Results flagged for a closer look

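In 186 groups of 4 libraries (62 named genes in 3 groups), 18 had 1 library farther from the others than Dixon's 95% limit for 4 values, where chance gives about 1 group in 20. WT library 12 was the far one in 7: it was high for Gpi1 (1060 CPM), Ndrg1 (16.4 CPM), Stc2 (18.4 CPM), Gdf15 (3.63 CPM), Car9 (7.92 CPM), Egr2 (3.75 CPM) and Nupr1 (3.51 CPM). WT library 11 was high in 5: Car3 (68.0 CPM), Dusp6 (15.9 CPM), Acta2 (3.41 CPM), Tcim (0.852 CPM) and Ccl2 (0.131 CPM).

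Igfbp2 library 7 was high for Adamts14 (138 CPM), Slc7a11 (71.7 CPM) and Scg2 (19.5 CPM), and Igfbp2 library 8 for Lrrc32 (19.7 CPM). Ncf1-/- library 1 was low for Dusp6 (46.8 CPM), and Ncf1-/- library 4 for Car4 (2.48 CPM).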

How the results depend on the processing

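The number of genes that met the rule was 155 with a pseudocount of 2 and 55 with a log2 difference of at least 1 at both steps. It was 182 with the structural RNAs kept in, 337 with TMM library sizes, 331 with DESeq2 size factors and 191 on TPM, sharing 182, 201, 198 and 158 genes with the 235. Leaving out 1 library gave 223 to 278 genes (278 without library 12). The 235 genes kept both differences above 0 under each of these settings except TPM, where 234 did at each step, and Ltbp1 was at -0.19 and -0.025. Of 2480 recomputed differences of the named genes, 2359 moved by less than the spread between replicates and 2 changed sign.

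Between the genotypes leaving out 1 library gave 8254 to 9406 calls, beside 8978 with all. With Igfbp2 the 3923 calls (57.0% of them higher) became 5906 on library totals (648 higher and 5258 lower), 4725 without structural RNAs (955 higher and 3770 lower) and 6354 with limma on log2(TPM + 1) (200 higher and 6154 lower). These settings moved the median of all genes from 0.04 to -0.23, -0.15 and -0.30. Leaving out 1 library gave 2294 to 4872 calls, with 2320 without library 1, 2294 without library 2 and 2550 without library 6. With the replicate block for the preparation the Igfbp2 calls numbered 5434 (2874 higher and 2560 lower), and the block changed no call of a single gene named with its p. That fit left out the WT libraries, so its difference from the main fit is not that of the block alone. On library totals the medians of the carbonic anhydrase and interferon lists with Igfbp2 were -0.21 and -0.066. The cause of these changes was not tested. At these depths genes under 1 CPM rest on few counts, and folds against WT of such genes depend on the pseudocount.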
